A study of Saccharomyces cerevisiae with 6 samples.

Results

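The genes described here encode the aminoacyl-tRNA synthetases of budding yeast, the enzymes that join each amino acid to its tRNA, together with ARC1, which encodes a tRNA-binding protein that holds methionyl- and glutamyl-tRNA synthetase. They are 34 of the 6256 genes on the array and were taken by systematic name from a fixed list, with 1 probe per gene. The list holds 16 cytosolic genes, 4 genes that each encode both the cytosolic and the mitochondrial enzyme (called dual here), 13 genes for mitochondrial enzymes, and ARC1. The cysteinyl enzyme gene CRS1 and the mitochondrial prolyl enzyme gene AIM10 are outside the list and are given with the related genes.

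The study compared BH13, a Saccharomyces cerevisiae mutant that resists coniferyl aldehyde better, against the reference strain (REF). The aldehyde is a phenolic breakdown product of lignin that slows yeast growth. Both strains were grown without treatment in yeast minimal medium to log phase, and BH13 is 1 mutant strain whose mutations the labels do not give. There were 3 arrays per strain, and the labels do not say whether the replicates were started as separate cultures, so the spread behind each p-value is that of these samples and could be technical in part.

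Each synthetase reads 1 amino acid and its set of tRNAs. Proteins are made both in the cytosol and inside mitochondria, and yeast uses separate nuclear genes for many of the mitochondrial enzymes. For alanine, glycine, histidine and valine a single gene serves both compartments by starting translation at different sites. The synthetases form a pair of structurally unrelated families, class I and class II. When tRNAs lack their amino acid, the kinase Gcn2 senses them and translation of the transcription factor Gcn4 rises.

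Between 91.4% and 93.8% of gene spots were well above background on each array, and the 75th percentile of intensity lay between 2301 and 4905. Signals correlated at 0.994 to 0.998 across genes between arrays of a strain and at 0.854 to 0.877 between strains. The BH13 arrays shared 1 slide, the REF arrays lay on 2 others, and all REF arrays were scanned on a day other than the BH13 arrays. Strain therefore cannot be told apart from slide or from day of scanning. Genes of growth state moved with the strains, while 43.3% of all genes tested were lower in BH13 and 38.0% higher (limma adjusted p under 0.05). All 10 listed ribosome biogenesis genes were lower in BH13, where their signals, as multiples of the 75th percentile, summed to 11.0 to 11.8, against 55.6 to 62.0 in REF. All 10 general stress genes were higher, with sums of 53.0 to 59.0 in BH13 against 2.93 to 4.51 in REF. All 6 markers of mating type a were lower, with sums of 0.253 to 0.268 in BH13 against 7.45 to 7.79 in REF, and so were all 6 haploid-specific genes, with sums of 0.370 to 0.407 against 5.86 to 6.43. Among them, MFA2, AGA2 and HO had no BH13 array well above background, so they passed the filter on dim probes through the REF arrays alone. Of 3 tested markers of mating type alpha 2 were higher, and sums over the list were 0.143 to 0.167 in BH13 against 0.120 to 0.147 in REF. The part of these states in the synthetase results was not tested.

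All 34 probes were well above background on all 6 arrays, and none had an outlier or saturated spot. The lowest member intensity was 252 units, for ISM1, and the highest was 83333, for GRS1. The 2 spots of a probe differed by a median of 0.05 on the log2 scale and by at most 0.29. Values below are log2 signals relative to the 75th percentile of the same array, and differences, BH13 minus REF, carry ± the standard error of the limma fit (n = 3 arrays in each strain). Called means a limma adjusted p under 0.05 over all genes tested. In these bulk samples, a smaller share of cells with a transcript and less of it per cell cannot be told apart, and the scaling to each array hides any change in total RNA per cell. A probe of a dual gene reads the transcripts for both enzyme forms together.

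Synthetase genes were mostly lower in BH13. Of the 34, 24 were lower and 2 higher, which is 70.6% and 5.88%, against 43.3% lower and 38.0% higher among all 5890 genes tested. The median difference was -0.50, against -0.07 over all genes. The changes were moderate, since 5 of 34 members (14.7%) were lower by at least 2-fold, close to the 17.5% of all genes. The 3 BH13 values lay below the 3 REF values for 23 members (67.6%, against 44.6% of all genes) and above them for 2, MSF1 and MSM1, where 39.2% of all genes lay above.

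**Figure D1:**
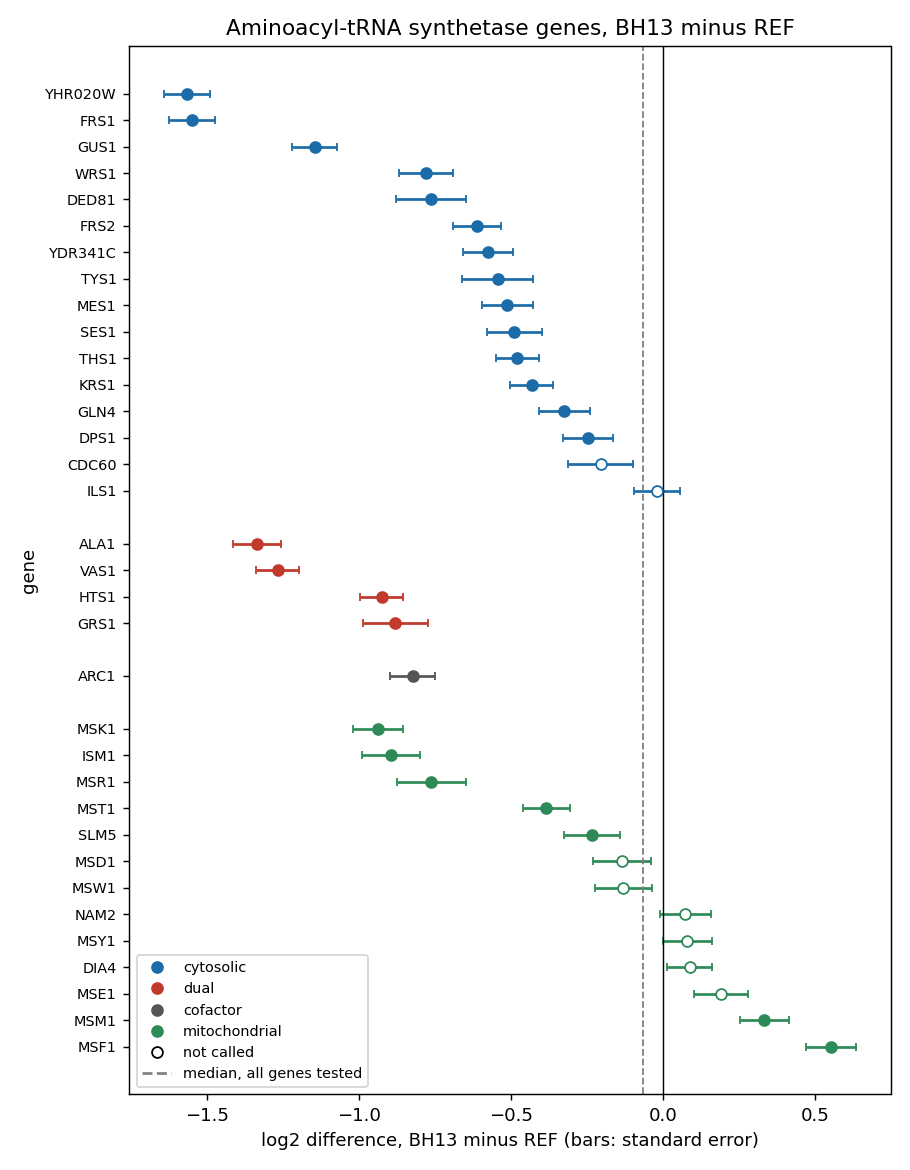
Log2 difference, BH13 minus REF, of each of the 34 genes (points) with its standard error (bars), grouped as cytosolic, dual, cofactor (ARC1) and mitochondrial, with filled points for called genes and a dashed line at the median of all genes tested, -0.07. The 4 dual genes lie between -1.34 and -0.88, the cytosolic genes between -1.57 and -0.02, and the mitochondrial genes on both sides of 0.

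Among the 16 cytosolic genes 14 were lower (87.5%) and none was higher, against 43.3% and 38.0% of all genes. The median difference was -0.53, or 69.3% of the REF signal. YHR020W, the cytosolic prolyl-tRNA synthetase gene, was at 0.95, 0.95 and 0.94 on the BH13 arrays, against 2.60, 2.42 and 2.51 on the REF arrays. The BH13 arrays were nearly alike and all below REF, and YHR020W fell by 1.57 ± 0.08 (limma adjusted p = 3.39e-07), to 33.8% of the REF signal. FRS1, for the beta subunit of cytosolic phenylalanyl-tRNA synthetase, was at 0.14, 0.16 and 0.11 in BH13, against 1.60, 1.78 and 1.68 in REF. Here too the strains were well apart, and FRS1 fell by 1.55 ± 0.08 (limma adjusted p = 3.72e-07). GUS1, the glutamyl-tRNA synthetase gene, was at 1.45, 1.42 and 1.57 in BH13, against 2.60, 2.61 and 2.66 in REF, and fell by 1.15 ± 0.07 (limma adjusted p = 1.80e-06). These 3 were the cytosolic genes lower by at least 2-fold (18.8%, against 17.5% of all genes).

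The other 11 called cytosolic genes had differences from -0.78 to -0.25. WRS1, for tryptophan, differed by -0.78 ± 0.09, and DED81, for asparagine, by -0.76 ± 0.12. FRS2, for the alpha subunit of the phenylalanyl enzyme, was at -0.61, YDR341C, for arginine, at -0.58, TYS1, for tyrosine, at -0.55 and MES1, for methionine, at -0.51. SES1, for serine, was at -0.49, THS1, for threonine, at -0.48, KRS1, for lysine, at -0.43 and GLN4, for glutamine, at -0.33. DPS1, for aspartate, was the smallest call, at -0.25 ± 0.08 (limma adjusted p = 0.0227). Its call was lost with cyclic loess normalization, at -0.12 (limma adjusted p = 0.218), and without BH13 replicate 1, BH13 replicate 3 or REF replicate 1, with limma adjusted p of 0.0576, 0.0648 and 0.0732.

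The 2 cytosolic genes that were not called charge branched-chain amino acids. ILS1, for isoleucine, was at 3.33, 3.38 and 3.32 in BH13, against 3.45, 3.36 and 3.29 in REF. The strains overlapped, with a difference of -0.02 ± 0.07 (limma adjusted p = 0.801), and its sign turned to 0.01 with median centring and 0.08 with cyclic loess. CDC60, for leucine, was at 1.15, 0.86 and 1.02 in BH13, against 1.36, 1.22 and 1.07 in REF, with a difference of -0.21 ± 0.11 (limma adjusted p = 0.105). REF replicate 3 overlapped the BH13 values, and without it CDC60 was called lower, at -0.28 (limma adjusted p = 0.0378).

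All 4 dual genes were lower, against 43.3% of all genes, with a median difference of -1.10, or 46.7% of the REF signal. ALA1, for alanine, was at 0.09, -0.05 and 0.07 in BH13, against 1.38, 1.45 and 1.29 in REF, and fell by 1.34 ± 0.08 (limma adjusted p = 1.06e-06). VAS1, for valine, the third branched-chain amino acid, was at 0.81, 0.81 and 0.74 in BH13, against 1.99, 2.08 and 2.08 in REF, and fell by 1.27 ± 0.07 (limma adjusted p = 7.94e-07). Both strains were tight and far apart for these genes. HTS1, for histidine, was at 1.96, 1.96 and 2.02 in BH13, against 2.90, 2.96 and 2.86 in REF, and fell by 0.93 ± 0.07. GRS1, for glycine, was at 2.93, 3.21 and 2.99 in BH13, against 3.90, 4.09 and 3.78 in REF, and fell by 0.88 ± 0.11. The strains did not overlap for either gene.

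ARC1 fell as well. It was at 2.19, 2.33 and 2.33 in BH13, against 3.09, 3.14 and 3.10 in REF, a difference of -0.82 ± 0.07 (limma adjusted p = 1.24e-05). Its enzyme partners were the called genes GUS1, at -1.15, and MES1, at -0.51.

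**Figure D2:**
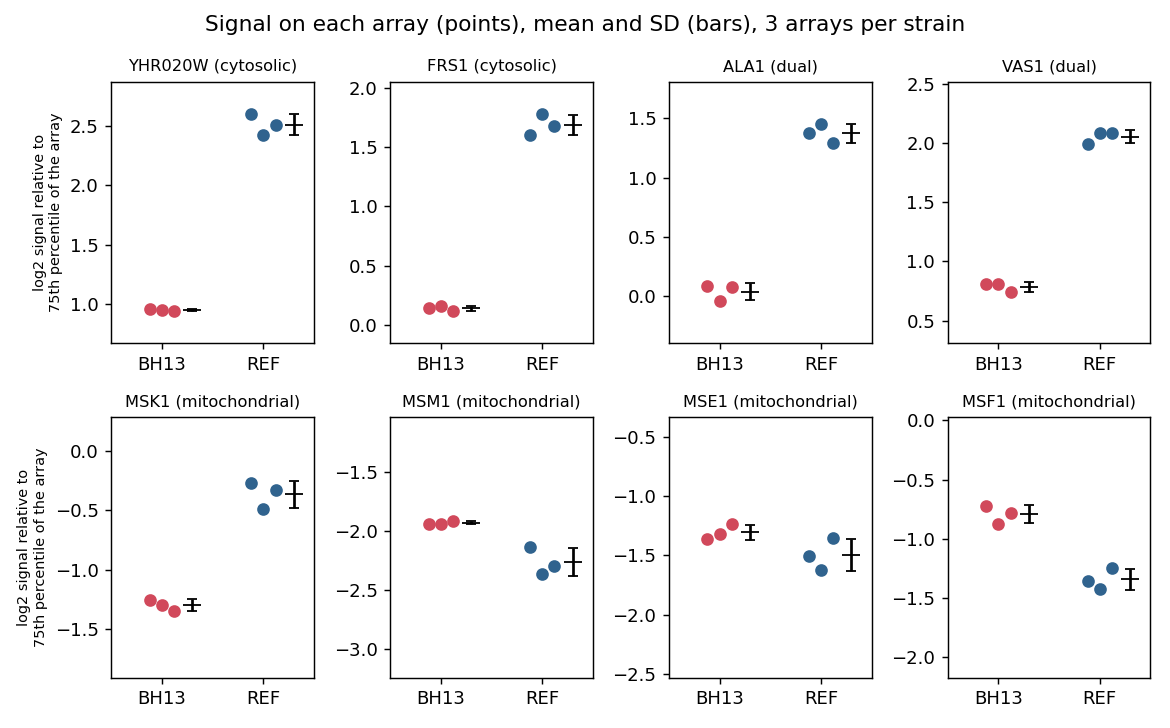
Log2 signal relative to the 75th percentile of the array for 8 genes, with 1 point per array, BH13 left of REF, and the mean and SD of 3 arrays as bars; every panel spans the same height on the log2 scale. YHR020W, FRS1, ALA1, VAS1 and MSK1 have all BH13 points below REF, MSM1 and MSF1 have all BH13 points above REF, and MSE1 overlaps.

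The 13 mitochondrial genes went both ways. Of these, 5 were lower (38.5%), 2 were higher (15.4%) and 6 were not called, against 43.3% and 38.0% of all genes, and the median difference was -0.13. With cyclic loess normalization, which fits the scaling to intensity, 4 were lower and 6 higher, where 2393 of all 5890 genes were lower and 2410 higher. The median was -0.04 without BH13 replicate 1 and -0.05 without REF replicate 1. Per array, the median of the 13 relative to each gene's REF mean was -0.17, -0.02 and -0.07 in BH13 and 0.04, -0.08 and -0.01 in REF, so the strains overlapped. For the cytosolic genes the same medians were -0.61, -0.48 and -0.58 in BH13 and 0.03, 0.01 and -0.05 in REF, and for the dual genes -1.12, -1.09 and -1.12 in BH13 and -0.01, 0.06 and -0.07 in REF, without overlap in either class. The difference between classes was not tested.

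The lower mitochondrial genes were led by MSK1, for lysine. MSK1 was at -1.25, -1.30 and -1.35 in BH13, against -0.27, -0.49 and -0.33 in REF, and fell by 0.94 ± 0.08 (limma adjusted p = 1.08e-05). ISM1, for isoleucine, was at -3.09, -3.02 and -3.20 in BH13, against -2.22, -2.07 and -2.35 in REF, and fell by 0.89 ± 0.10 (limma adjusted p = 3.39e-05). MSR1, for arginine, was at -1.68, -1.33 and -1.45 in BH13, against -0.65, -0.63 and -0.88 in REF, a difference of -0.76 ± 0.11. The strains were apart for these genes, as for MST1, for threonine, which differed by -0.38 ± 0.08. SLM5, for asparagine, was called at -0.23 ± 0.09 (limma adjusted p = 0.0434), although REF replicate 1 at -2.19 lay just below BH13 replicate 2 at -2.18. Its call was lost under 9 alternatives, with limma adjusted p from 0.0504 to 0.454.

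The higher mitochondrial genes were MSF1 and MSM1. MSF1, for phenylalanine, was at -0.72, -0.87 and -0.78 in BH13, against -1.36, -1.42 and -1.25 in REF, and rose by 0.55 ± 0.08 (limma adjusted p = 0.000271), to 147% of the REF signal. MSM1, for methionine, was at -1.94, -1.94 and -1.92 in BH13, against -2.13, -2.36 and -2.30 in REF, and rose by 0.33 ± 0.08 (limma adjusted p = 0.00508). In both genes every BH13 array was above every REF array. MSE1, for glutamate, was at -1.36, -1.32 and -1.24 in BH13, against -1.50, -1.63 and -1.36 in REF. REF replicate 3 was the array that overlapped, the difference of 0.19 ± 0.09 was not called (limma adjusted p = 0.0813), and MSE1 was called higher under 4 alternatives, at 0.26 without REF replicate 3 and 0.24 with normexp background correction.

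The other 5 mitochondrial genes had differences from -0.14 to 0.09, and their strains overlapped. MSD1, for aspartate, was at -1.44, -1.34 and -1.44 in BH13, against -1.09, -1.37 and -1.36 in REF, where replicate 1 stood above the rest (limma adjusted p = 0.212). MSW1, for tryptophan, was at -1.30, -1.01 and -1.06 in BH13, against -0.95, -1.03 and -1.00 in REF (limma adjusted p = 0.221). NAM2, for leucine, whose product also helps to splice mitochondrial introns, was at -2.03, -2.01 and -2.21 in BH13, against -2.18, -2.09 and -2.20 in REF (limma adjusted p = 0.444). In all 3 genes the arrays of the strains were mixed. MSY1, for tyrosine, was at -2.41, -2.51 and -2.40 in BH13, against -2.42, -2.60 and -2.54 in REF (limma adjusted p = 0.383). DIA4, for serine, was at -2.31, -2.38 and -2.44 in BH13, against -2.50, -2.50 and -2.40 in REF (limma adjusted p = 0.309). With cyclic loess normalization NAM2, MSY1 and DIA4 were called higher, at 0.22, 0.26 and 0.26.

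For 13 amino acids the list holds a separate mitochondrial and cytosolic gene, so the mitochondrial signal minus the cytosolic signal can be taken on each array and compared between strains. This ratio was higher in BH13 for 10 amino acids and lower for 3. The count stayed 10 with normexp background correction, quantile or cyclic loess normalization, and with each array left out in turn. Most other alternatives, such as median centring, the filter and the replicate block, leave the ratio unchanged by construction and could not alter the count. In 7 pairs the cytosolic gene was called lower and the mitochondrial gene was not, and in 4 pairs both were lower. Such counts can arise from the class calls alone. Of the cytosolic genes 14 of 16 were lower and of the mitochondrial genes 5 of 13, against 43.3% of all genes. A link within an amino acid was not tested. The widest gap was for phenylalanine, where MSF1 minus the mean of FRS1 and FRS2 was -1.36, -1.58 and -1.46 in BH13, against -3.05, -3.28 and -2.98 in REF, a difference of 1.63. For glutamate, GUS1 was taken as cytosolic here, although an alternative counted it as dual. MSE1 minus GUS1 was -2.81, -2.73 and -2.80 in BH13, against -4.10, -4.24 and -4.02 in REF, a difference of 1.34. Methionine followed at 0.84, tryptophan at 0.65, tyrosine at 0.62, serine at 0.58 and asparagine at 0.53. Leucine, aspartate and threonine had differences of 0.28, 0.11 and 0.10.

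Isoleucine and lysine went the other way. ISM1 minus ILS1 was -6.42, -6.40 and -6.52 in BH13, against -5.67, -5.42 and -5.64 in REF, a difference of -0.87, with the mitochondrial gene lower and the cytosolic gene not called. MSK1 minus KRS1 was -3.92, -4.05 and -4.07 in BH13, against -3.46, -3.64 and -3.42 in REF, a difference of -0.50. For arginine, MSR1 minus YDR341C differed by -0.19 and the strains overlapped. The strains did not overlap for the other 12 pairs, 10 above and 2 below, while among single genes 39.2% lay above and 44.6% below without overlap, so a lack of overlap was common in these arrays. An exact permutation test of 3 arrays against 3, two-sided, cannot go below p = 0.1, which these 12 pairs reached, and adjusted over the 13 pairs p was 0.108.

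**Figure D3:**
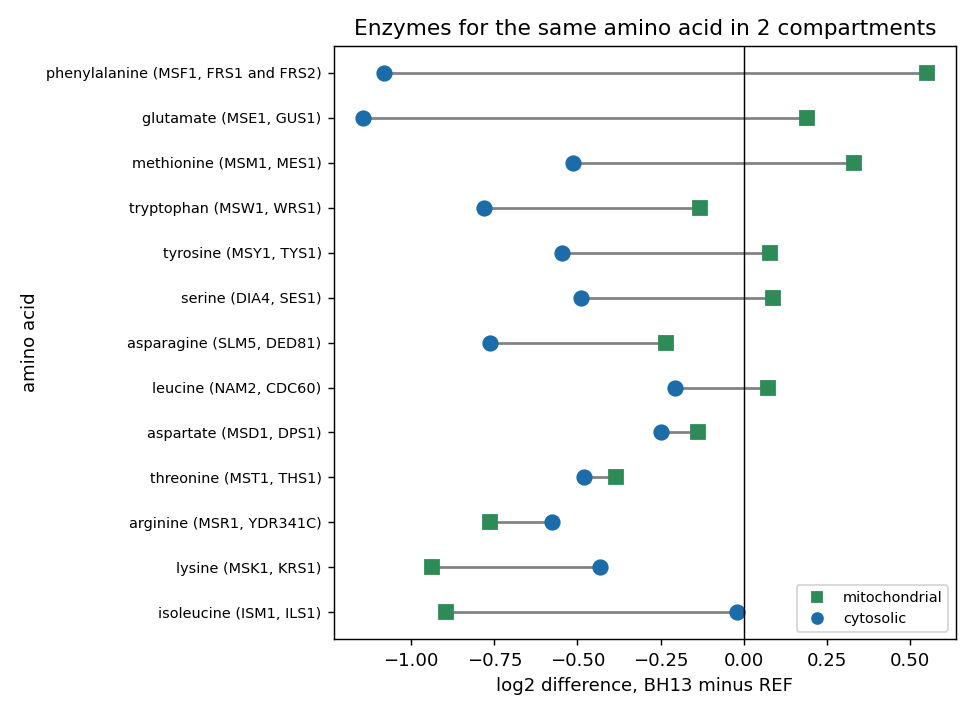
Log2 difference, BH13 minus REF, of the mitochondrial (squares) and the cytosolic enzyme gene (circles, the mean of FRS1 and FRS2 for phenylalanine) for 13 amino acids, ordered from the largest to the smallest gap. The square lies right of the circle for 10 amino acids and left of it for arginine, lysine and isoleucine.

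By enzyme family, 14 of 17 class II genes were lower and 1 higher, and 9 of 16 class I genes were lower and 1 higher, with medians of -0.49 and -0.42, where 43.3% of all genes were lower and 38.0% higher. All 8 cytosolic class II genes were lower, as were 6 of 8 of class I, where ILS1 and CDC60 stand. In the mitochondrial set 3 of 6 class II and 2 of 7 class I genes were lower, shares on either side of the 43.3% of all genes. The difference between families was not tested.

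Some members tied by their product or position had unequal differences. These 4 contrasts were chosen after the values were seen, for their difference, and are given as a description without a test. FRS1 and FRS2 encode subunits of 1 enzyme, and FRS1 minus FRS2 was -1.00, -1.10 and -1.13 in BH13, against -0.17, -0.15 and -0.11 in REF, a difference of -0.93. YHR020W and DED81 are neighbours on chromosome VIII that are transcribed away from each other, and YHR020W minus DED81 was -1.36, -1.70 and -1.41 in BH13, against -0.69, -0.85 and -0.52 in REF, a difference of -0.80. GUS1 minus MES1, the partners of ARC1, differed by -0.63. GRS2, a duplicate of GRS1 that is not among the 34, was at -0.42, -0.29 and -0.35 in BH13, against -1.03, -1.22 and -1.03 in REF. GRS2 rose by 0.74 ± 0.08 while GRS1 fell, so GRS1 minus GRS2 differed by -1.62, although probes of duplicated genes may read each other's transcripts.

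Other genes of tRNA charging went both ways, much as all genes did. Of 6 genes that load or complete tRNAs, 3 were lower and 2 higher, near the 43.3% and 38.0% of all genes. The cysteinyl-tRNA synthetase gene CRS1 was at 0.72, 0.78 and 0.70 in BH13, against 1.70, 1.74 and 1.62 in REF, and fell by 0.96 ± 0.07 (limma adjusted p = 4.24e-06). AIM10, for a mitochondrial prolyl-tRNA synthetase, differed by -0.34 ± 0.07, or -0.21 with cyclic loess normalization. The third lower gene, GTF1, for another amidotransferase subunit, is named after its values were seen, and its call was lost under 6 alternatives. FMT1, which formylates the mitochondrial initiator tRNA, was dimmer than any of the 34 members, at means of -5.80 in BH13 and -6.95 in REF. FMT1 rose by 1.16 ± 0.14, or 0.55 with normexp background correction. PET112, for a subunit of the mitochondrial amidotransferase that makes glutaminyl-tRNA, rose by 0.39 ± 0.09.

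The list around the response to uncharged tRNA holds the kinase gene GCN2, its activators GCN1 and GCN20, the downstream transcription factor gene GCN4, and YIH1 and GIR2, whose products bind Gcn1. All 6 were called lower, against 43.3% of all genes, with a median of -0.83. GCN4 was at 1.78, 1.72 and 1.65 in BH13, against 3.59, 3.46 and 3.51 in REF, and fell by 1.81 ± 0.08 (limma adjusted p = 1.68e-07). GIR2 fell by 1.11 ± 0.07. These are transcript levels, and Gcn4 is controlled largely at translation. Of 10 genes for delivery of aminoacyl-tRNA and elongation, 6 were lower and none higher, against 43.3% and 38.0% of all genes. The largest falls were YEF3, for elongation factor 3, at -2.09 ± 0.11 and TEF4, for a subunit of the exchange factor of the tRNA carrier, at -0.92 ± 0.09. The count for this list moved with the scaling. With quantile normalization TEF1, TEF2 and HYP2 were also called lower, at -0.65, -0.55 and -0.32, and HEF3 was called higher, at 0.27. These genes are named after their values were seen.

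Of 19 genes for tRNA maturation 14 were lower and 1 higher, with a median of -0.56, where 43.3% of all genes were lower and 38.0% higher. TRM1, for a tRNA guanine methyltransferase, fell by 3.30 ± 0.09, GCD10, for a subunit of a tRNA adenine methyltransferase, fell by 2.04 ± 0.08, and SEN15, for a subunit of the splicing endonuclease, rose by 0.39 ± 0.09. Of 5 tRNA transport genes 2 were lower and 1 higher, a share of lower genes near the 43.3% of all genes. UTP8, which also acts in ribosomal RNA processing, was at -1.88 ± 0.10, the exportin gene LOS1 at -0.48 ± 0.09 and the karyopherin gene MSN5 at 0.25 ± 0.07. The call of MSN5 was lost without BH13 replicate 3 (limma adjusted p = 0.0533). Of 6 mitochondrial translation factors 3 were lower and 1 higher, and here too the lower share was near that of all genes. The initiation factor gene IFM1 was at -0.99 ± 0.08, the release factor gene MRF1 at -0.48 ± 0.08 and the recycling factor gene RRF1 at 0.51 ± 0.12.

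The list for hydrolysis of misformed aminoacyl-tRNA and of peptidyl-tRNA was higher, with 4 of 4 genes called, against 38.0% of all genes called higher. DTD1, which removes D-amino acids from tRNA, was at 0.76, 0.68 and 0.79 in BH13, against -1.88, -1.76 and -1.71 in REF, and rose by 2.53 ± 0.08 (limma adjusted p = 6.24e-08). The peptidyl-tRNA hydrolase gene PTH1 was dimmer than any synthetase gene, at means of -6.11 in BH13 and -7.09 in REF. PTH1 rose by 0.98 ± 0.14, or by 0.53 with normexp background correction, and its call was lost with quantile normalization (0.44, limma adjusted p = 0.0518). PTH4, at 0.63 ± 0.08, and PTH2, at 0.23 ± 0.08, are named after their values were seen, and the call of PTH2 was lost in 5 of the 6 fits that left out an array.

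**Figure D4:**
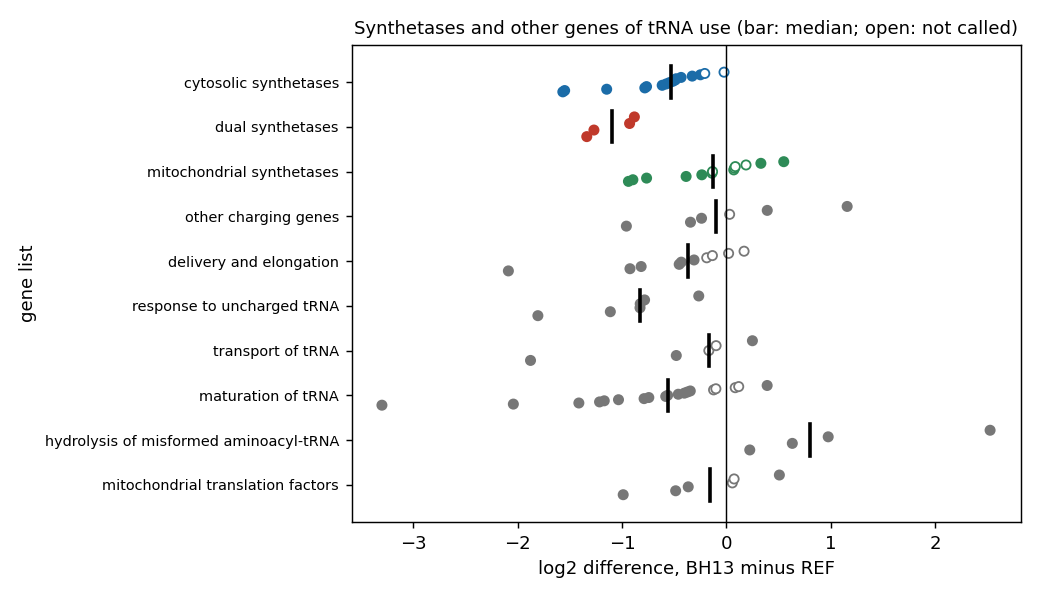
Log2 difference, BH13 minus REF, of the synthetase classes and of 7 lists of other tRNA genes, with 1 point per gene, filled where called, and a bar at each median. The medians are -1.10 for dual genes, -0.83 for the list around uncharged tRNA and 0.81 for the hydrolysis list.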

How the data were processed

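Cy3-labelled total RNA of 3 BH13 and 3 REF samples was hybridised to one-colour Agilent yeast arrays, per the labels' protocols. The deposited spot intensity values were already background-subtracted, and the file headers name Agilent Feature Extraction 10.7.3.1 for this, whereas the submitters' processing notes name version 9.1. The authors' deposited table of log2 values covers 1325 probes. Its values were centred on each probe's median over the arrays, and all 1325 probes were called in the limma fit to it. Its filter and array scaling are not given in the sources used. Its strain differences had a slope of 1.00 against those from the scanner files, with the same sign for all 1325 probes.

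Control and outlier spots were left out. Log2 signals of the 2 spots of each probe were averaged, and each array's 75th percentile was subtracted. Probes well above background on at least 3 arrays were kept, 5890 of 6256. Systematic names were matched to RefSeq assembly R64 for 5756 probes. The strains were fitted with limma 3.58.1 (lmFit, eBayes) in R 4.3.3. Its two-sided p-values had Benjamini-Hochberg adjustment over all 5890 genes, with a threshold of 0.05. The fit was tested on simulated data. The 13 pair contrasts had exact permutation tests in scipy 1.17.1, and figures were drawn with matplotlib 3.10.9.

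The members, lists and tests were chosen with earlier results of these data known. All 34 members are accounted for. Genes of the other lists are named by the largest called differences, up to 2 each way per list, and genes or contrasts outside that rule are marked where they appear. Alternatives covered background (normexp on median signals), scaling (median, quantile, cyclic loess), the filter (none, or all 6 arrays), use of outlier spots, robust variance with a trend, the authors' table, replicate number or slide as block, omission of each array, and the class of GUS1 and ARC1. No slide held both strains, so the slide block cannot separate slide from strain. Same-numbered BH13 and REF arrays deviated together with correlations of 0.13, 0.24 and 0.0027, against -0.21 to 0.09 for arrays of unlike number. Replicates 1 and 2 thus correlated best with their own number and replicate 3 did not, which does not settle whether the numbers pair the samples. The main fit did not pair them, and the block by replicate number is the alternative that does.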

Additional observations from a re-analysis of the deposited data

How the results depend on the processing

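Of 549 member values under the alternatives, 525 kept their direction and side of the threshold, 13 lost a call, 8 gained one and 3 changed sign. No member had an outlier spot, and all were well above background on all 6 arrays. The use of outlier spots and the filters therefore leave member differences almost unchanged by construction, and their values add little to the 525. The sign changes were those of ILS1, at 0.0086 with median centring, 0.075 with cyclic loess normalization and 0.021 without REF replicate 1, within a range of -0.058 to 0.021 when single arrays were left out. With cyclic loess, 6 members were higher, all of them mitochondrial, where 2410 of all 5890 genes were higher. The class medians were then -0.42 for cytosolic, -0.97 for dual and -0.055 for mitochondrial genes. With quantile normalization the cytosolic and dual medians were -0.63 and -1.19. Counting GUS1 as dual gave a dual median of -1.15. The authors' table holds 5 members, of which 5 were lower and 0 higher, 3 of them cytosolic and 2 dual. In the 7 related lists it gave 6 lower and 0 higher. All of its 1325 probes were called, 744 lower and 581 higher, with a median difference of -1.17. That table holds fewer probes, only called ones from the same arrays, so its counts do not test the member calls. The cause of the other shifts was not tested. With 1 array left out, 22 to 24 members were lower, 2 to 3 higher, and the mitochondrial median lay between -0.17 and -0.042. Of 918 values of the related genes, 885 kept direction and call, 16 lost a call, 8 gained one and 9 changed sign, all in genes that were not called. HYP2 was at -0.057 with normexp background correction and at -0.32 with quantile normalization, where it was called lower (limma adjusted p = 0.00763), and between -0.071 and 0.11 when arrays were left out. RPR2 was at -0.042 with quantile normalization and -0.031 with cyclic loess, and TUF1 at -0.013 with quantile normalization. With arrays left out, HER2 lay between -0.0052 and 0.060 and MEF2 between -0.037 and 0.15. No scaling of the full set moved the median of all genes by more than 0.076. The replicate block gave 24 lower and 2 higher members, and 2576 lower and 2270 higher genes. BH13 replicate 3 did not correlate best with its own number.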
